A study of Homo sapiens with 45 samples.

Results

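The genes studied here were the let-7 regulated oncofetal set LIN28A, LIN28B, HMGA1, HMGA2, IGF2BP1, IGF2BP2, IGF2BP3 and ARID3B, chosen by symbol and followed in every library. Of these 8 symbols, 7 were found among the 29159 genes counted, and HMGA2 was not analysed here. PolyA RNA was sequenced from 3 established cell lines of neuroblastoma, a childhood tumour of the sympathetic nervous system, all of the adrenergic (ADRN) type: SK-N-BE(2)C, which carries amplified MYCN, IMR-32, which also carries amplified MYCN, and SH-SY5Y, whose MYCN is not amplified. Each line was grown as an untreated control, with palbociclib (PB, which blocks the cell cycle kinases CDK4 and CDK6) at 1 μM for 24 h, and with 1 μM PB for a longer time, which was 7 d in SK-N-BE(2)C and 5 d in both other lines. Each of the 9 groups held 5 replicates, described as different passages plated in independent experiments, giving 45 libraries. The controls were collected alongside the 24 h samples, so time in culture and PB cannot be told apart at the longer time, and the length of the longer treatment cannot be told apart from the line.

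LIN28A and LIN28B are RNA-binding proteins of early embryonic tissues that bind the precursors of let-7 microRNAs and block their maturation. Mature let-7 in turn pairs through its seed with sites in the 3′ UTRs of messenger RNAs, those of both LIN28 genes among them, so that LIN28 and let-7 repress each other. Other well-known let-7 targets are the HMGA genes, which encode small architectural proteins of chromatin, the IGF2BP genes, whose proteins bind and stabilise messenger RNAs, and ARID3B, a DNA-binding protein with an AT-rich interaction domain. LIN28B is known in neuroblastoma as an oncogene that keeps let-7 low and the MYCN protein high. Mature microRNAs carry no polyA tail and were not measured in these libraries.

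The pairing that links these genes is shown first, because each of them carries it. RefSeq holds 9 mature let-7 family microRNAs from 12 hairpins, and all 9 share 1 seed, bases 2 to 8, which is in capitals in the examples here. The members differ in the bases after the seed.
hsa-let-7a-5p: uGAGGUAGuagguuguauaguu
hsa-let-7g-5p: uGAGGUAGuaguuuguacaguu
hsa-miR-98-5p: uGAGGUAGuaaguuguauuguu

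A match to this seed, CTACCTC on the transcript strand, was searched in the 3′ UTR of 1 transcript of each protein-coding gene (GENCODE annotation on GRCh37; the let-7 sequences are from RefSeq, GRCh38.p14). At least 1 match lay in the 3′ UTRs of all 7 genes found, against 1854 of 19064 protein-coding genes (9.73%). The genes were chosen as known let-7 targets, so the numbers of matches describe them and test nothing. LIN28B and IGF2BP1 held 4 matches each, and the other 5 genes held 1 each. Among all protein-coding genes, 36 (0.189%) held 3 or more. Length matters for such a count: of 1887 genes whose 3′ UTR has a length like that of LIN28B (4549 bases), 0.106% held as many matches, and of 953 like IGF2BP1 (6701 bases), 0.315%. Among genes of like length to the other 5, between 8.58% and 15.7% held at least 1. A match is a description of the sequence and not a measured site. LIN28B lies at chr6:105384491-105531207 (GRCh37, + strand), IGF2BP1 at chr17:47074747-47133507 (+), IGF2BP2 at chr3:185360918-185542830 (-), IGF2BP3 at chr7:23349828-23510110 (-), HMGA1 at chr6:34204650-34214008 (+), ARID3B at chr15:74833547-74890472 (+) and LIN28A at chr1:26737308-26756219 (+). The matches of LIN28B and IGF2BP1, and 1 each of IGF2BP3, HMGA1 and ARID3B, are printed with the 15 bases before them and the base after them, 5′ to 3′ on the transcript strand, with the seed match in capitals. An A after the match, as in the first site of LIN28B, is the form that Argonaute is known to favour.
LIN28B site 1, chr6:105526687-105526709 (+ strand): acccggttgcaaagtCTACCTCa
LIN28B site 2, chr6:105529114-105529136 (+ strand): tactgatgatagtaaCTACCTCt
LIN28B site 3, chr6:105529296-105529318 (+ strand): gtttacagcaaaaggCTACCTCa
LIN28B site 4, chr6:105530735-105530757 (+ strand): aaatgatggtgttgaCTACCTCt
IGF2BP1 site 1, chr17:47128423-47128445 (+ strand): tgtgtgcgaagtaaaCTACCTCa
IGF2BP1 site 2, chr17:47131060-47131082 (+ strand): cagcagtgctagtaaCTACCTCa
IGF2BP1 site 3, chr17:47131714-47131736 (+ strand): gtataaatggattaaCTACCTCa
IGF2BP1 site 4, chr17:47132359-47132381 (+ strand): tcacttttgttttatCTACCTCt
IGF2BP3 site 1, chr7:23351414-23351436 (- strand): tgcatttttactcaaCTACCTCa
HMGA1 site 1, chr6:34213606-34213628 (+ strand): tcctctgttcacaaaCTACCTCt
ARID3B site 1, chr15:74890442-74890464 (+ strand): tatttcaataaacctCTACCTCt

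**Figure D1:**
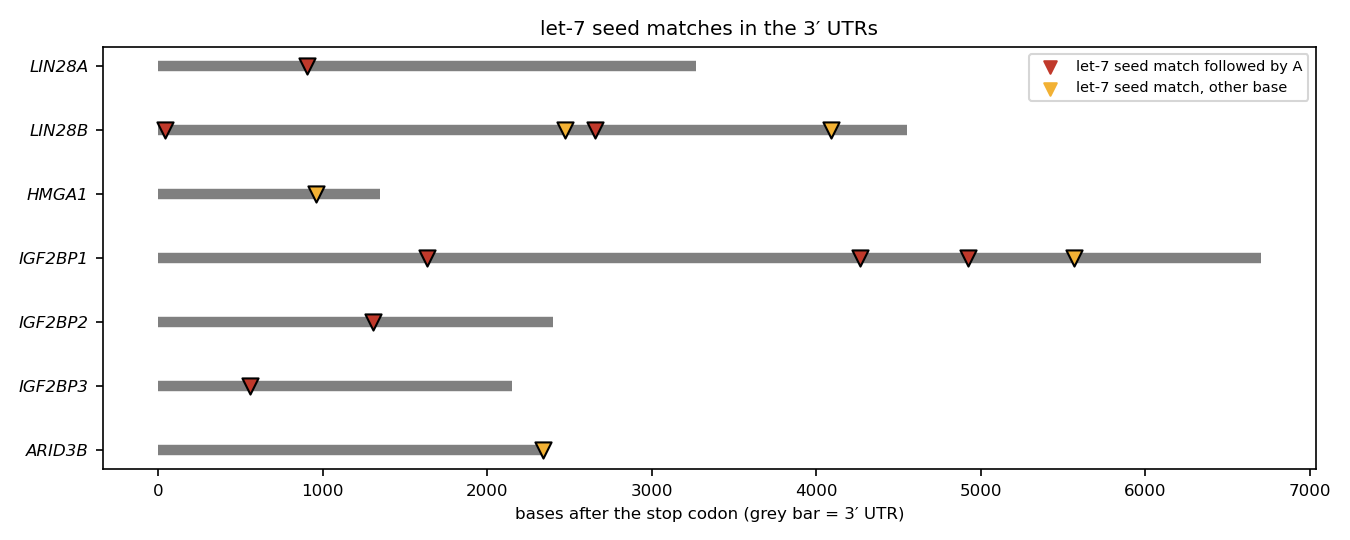
Seed matches of let-7 along the 3′ UTR of each of 7 genes; the horizontal axis is the distance in bases from the stop codon, the grey bar is the 3′ UTR, and triangles are matches, red where an A follows and yellow where another base does. LIN28B and IGF2BP1 carry 4 matches each and the other genes 1, and the first match of LIN28B lies 44 bases after the stop codon.

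Library totals ran from 13459219 to 25441812 counts, with a median of 18494528, and replicates of a group differed by more than counting error (chi-square per degree of freedom from 1.71 to 92.2 over 90 pairs). In the control and 24 h groups of SK-N-BE(2)C, replicates 3 to 5 were closest to each other (1.71 to 3.31). Against replicates 1 and 2 they stood at 13.6 to 25.1. The reason was not tested, and these replicates may be less independent than their number. Levels are given as CPM, a gene's counts per 1000000 counts of its library, in the order of replicates 1 to 5. The biological coefficient of variation was 19.8% in IMR-32, 11.2% in SH-SY5Y and 13.8% for the SK-N-BE(2)C libraries. Replicate 5 of each IMR-32 group correlated less with its group (mean r 0.95 to 0.97) than the other IMR-32 libraries did (0.973 to 0.985), and replicate 1 correlated least (0.972) among the 7 d libraries of SK-N-BE(2)C. The ADRN label held in the RNA: the 10 adrenergic markers summed to between 2287 and 6626 CPM in the controls, although TFAP2B was under 1 CPM in IMR-32 and TH in SH-SY5Y. Of the Schwann cell markers examined, CDH19 was under 1 CPM in every group. S100B had 27 to 56 reads and ERBB3 was at 11.5 ± 3.42 CPM in the SK-N-BE(2)C controls, both were under 1 CPM in those of IMR-32, and S100B and ERBB3 were at 1.64 ± 0.273 and 1.22 ± 0.529 CPM in those of SH-SY5Y. The 8 mesenchymal markers summed to between 576 and 1855 CPM in the controls. A change of RNA per cell and a change in the share of cells that express a gene cannot be told apart in these bulk samples.

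In the untreated controls the 6 expressed genes spanned a wide range, and the 3 lines differed most in IGF2BP1 and IGF2BP2. Per kb of exon, which allows genes to be compared, HMGA1 stood highest in all 3 lines, at 521 ± 69.6 CPM per kb (SD, n = 5) in IMR-32, 188 ± 15.5 in SH-SY5Y and 253 ± 19.8 in the SK-N-BE(2)C controls. The level of LIN28B came next in SK-N-BE(2)C (25.3 ± 2.30 CPM per kb), where the range of IGF2BP1 (22.4 ± 2.82) overlapped with it. In IMR-32 the second level was that of IGF2BP1 (84.4 ± 17.7 CPM per kb), followed by IGF2BP3 (13.5 ± 1.85) and LIN28B (9.33 ± 1.08), which did not overlap. In SH-SY5Y the second was IGF2BP3 (19.4 ± 1.66 CPM per kb), while ARID3B (9.42 ± 1.58) and LIN28B (7.08 ± 1.09) overlapped. IGF2BP1 reached 0.131 ± 0.0205 CPM per kb in SH-SY5Y, and IGF2BP2 0.00685 ± 0.00964 in SK-N-BE(2)C. IGF2BP1 and IGF2BP2, which are paralogs, were thus each near the limit of detection in 1 line, and in different lines.

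Control levels were compared between lines with the edgeR quasi-likelihood F test on all 45 libraries, and a gene was called at a Benjamini-Hochberg adjusted p under 0.05 with an absolute log2 fold change over 0.5. Log2 fold changes are given ± SE. IGF2BP2 was left out of the counts against SK-N-BE(2)C, where the filter on low counts did not keep it. By this rule 4 of 5 genes differed between IMR-32 and SK-N-BE(2)C, 3 of 5 between SH-SY5Y and SK-N-BE(2)C, and 5 of 6 between SH-SY5Y and IMR-32, where 62.1%, 57.5% and 54.2% of all genes tested were called. LIN28B was highest in SK-N-BE(2)C, lower in IMR-32 (-1.46 ± 0.16, adjusted p = 1.1e-10) and lowest in SH-SY5Y, which was below IMR-32 (-0.58 ± 0.16, adjusted p = 0.0014). The last of these calls is lost when libraries are scaled by their totals alone (-0.40, adjusted p = 0.021), a scaling that moves the median of all genes by 0.183 in this comparison. HMGA1 was higher in IMR-32 than in SK-N-BE(2)C (1.03 ± 0.11, adjusted p = 8.5e-11), but lower in SH-SY5Y than in SK-N-BE(2)C (-0.63 ± 0.11, adjusted p = 4.3e-06), although the latter call is lost with library totals alone (-0.42). IGF2BP1 was higher in IMR-32 than in SK-N-BE(2)C (1.90 ± 0.17, adjusted p = 2.4e-13), but far lower in SH-SY5Y than in SK-N-BE(2)C (-7.61 ± 0.24, adjusted p = 1.7e-27).

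IGF2BP2 had only 3 reads over the 5 SK-N-BE(2)C controls. Its pooled CPM in the controls of IMR-32 was 475 times that of SK-N-BE(2)C (95% counting interval 163 to 2303) and in those of SH-SY5Y 291 times (99.7 to 1412), and SH-SY5Y was below IMR-32 (-0.89 ± 0.17, adjusted p = 7.2e-06). IGF2BP3 was the most even of the set. It did not pass the test between IMR-32 and SK-N-BE(2)C (0.10 ± 0.10, adjusted p = 0.35) and was below the fold limit in SH-SY5Y against SK-N-BE(2)C (0.44 ± 0.10, adjusted p = 1.8e-04) and against IMR-32 (0.33 ± 0.10, adjusted p = 0.0033), which library totals alone put at 0.64 and 0.52, both past it. ARID3B was lower in IMR-32 than in SK-N-BE(2)C (-0.55 ± 0.15, adjusted p = 0.0011), a call lost without replicate 5 of the IMR-32 controls (-0.47), with RLE size factors (-0.499), without the filter on low counts (-0.494) and in DESeq2 (-0.4996). In SH-SY5Y it was higher than in IMR-32 (0.76 ± 0.15, adjusted p = 2.0e-05), while SH-SY5Y did not differ from SK-N-BE(2)C by the test (0.21 ± 0.15, adjusted p = 0.20). Of MYCN, a let-7 target amplified in 2 of the lines, the SH-SY5Y controls held 6.35 ± 1.16 CPM, those of IMR-32 1637 ± 204 and those of SK-N-BE(2)C 3752 ± 458.

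**Figure D2:**
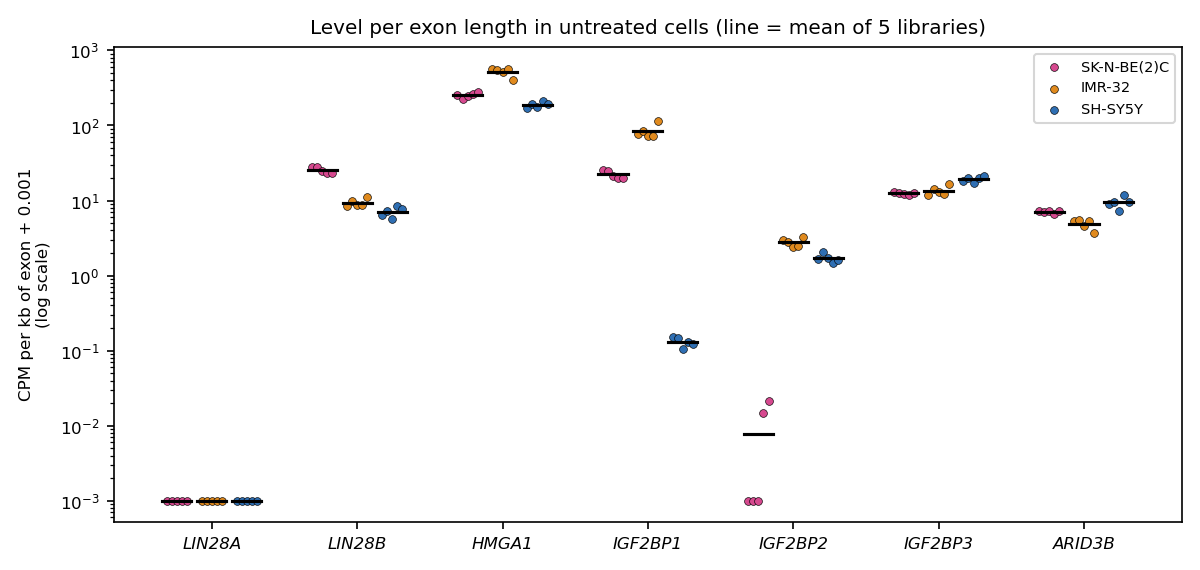
Levels in the untreated controls, as CPM per kb of exon plus 0.001 on a log axis, for 7 genes in 3 lines; points are the 5 libraries and the bar is their mean. HMGA1 is highest in every line, LIN28A lies at the bottom in all, IGF2BP1 drops in SH-SY5Y and IGF2BP2 in SK-N-BE(2)C.

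Under PB no gene of the set was called higher in any line or comparison, and the genes called lower were LIN28B, HMGA1, IGF2BP1 and IGF2BP3. Of the 7 genes found, the filter on low counts kept 5 in SK-N-BE(2)C and 6 in each of the other lines, so LIN28A, and IGF2BP2 in SK-N-BE(2)C, are described by their reads alone. At 24 h, the genes called lower were 1 of 6 in SH-SY5Y (background: 11% of all genes tested were called lower), 0 of 6 in IMR-32 (10.5%) and 1 of 5 in SK-N-BE(2)C (10.6%). Of the 6 in IMR-32 at 24 h, 3 were under the limit of adjusted p (as were 33.1% of all genes tested) without reaching that of fold change, the same 3 had an unadjusted p under 0.05, and DESeq2 also called 0. The genes called higher were 0 in all 9 comparisons, where the shares of all genes called higher were 10.5%, 18.6% and 10.5% for SH-SY5Y at 24 h, after 5 d and from the one to the other, 7.87%, 16.6% and 10.8% for IMR-32, and 10.9%, 24.5% and 17.5% for SK-N-BE(2)C, whose longer time was 7 d. At the longer time 3 genes were called lower in each line, of 6 in SH-SY5Y (background 17.3%), of 6 in IMR-32 (15.5%) and of 5 in SK-N-BE(2)C (22.3%). With the replicate number as a block, which pairs the libraries of IMR-32, 2 were called there at 5 d, HMGA1 no longer among them. From 24 h to the longer time 2 genes were called lower in SH-SY5Y (background 6.23%), 1 in IMR-32 (8.86%) and 3 in SK-N-BE(2)C (14.4%). The median log2 fold change of the tested genes at the longer time was -0.98, -0.47 and -0.50 for the lines in the order of their introduction, where that of all genes was 0.01, 0.00 and 0.01. The 3 comparisons of a line share libraries, so their values stand side by side and are not separate evidence.

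**Figure D3:**
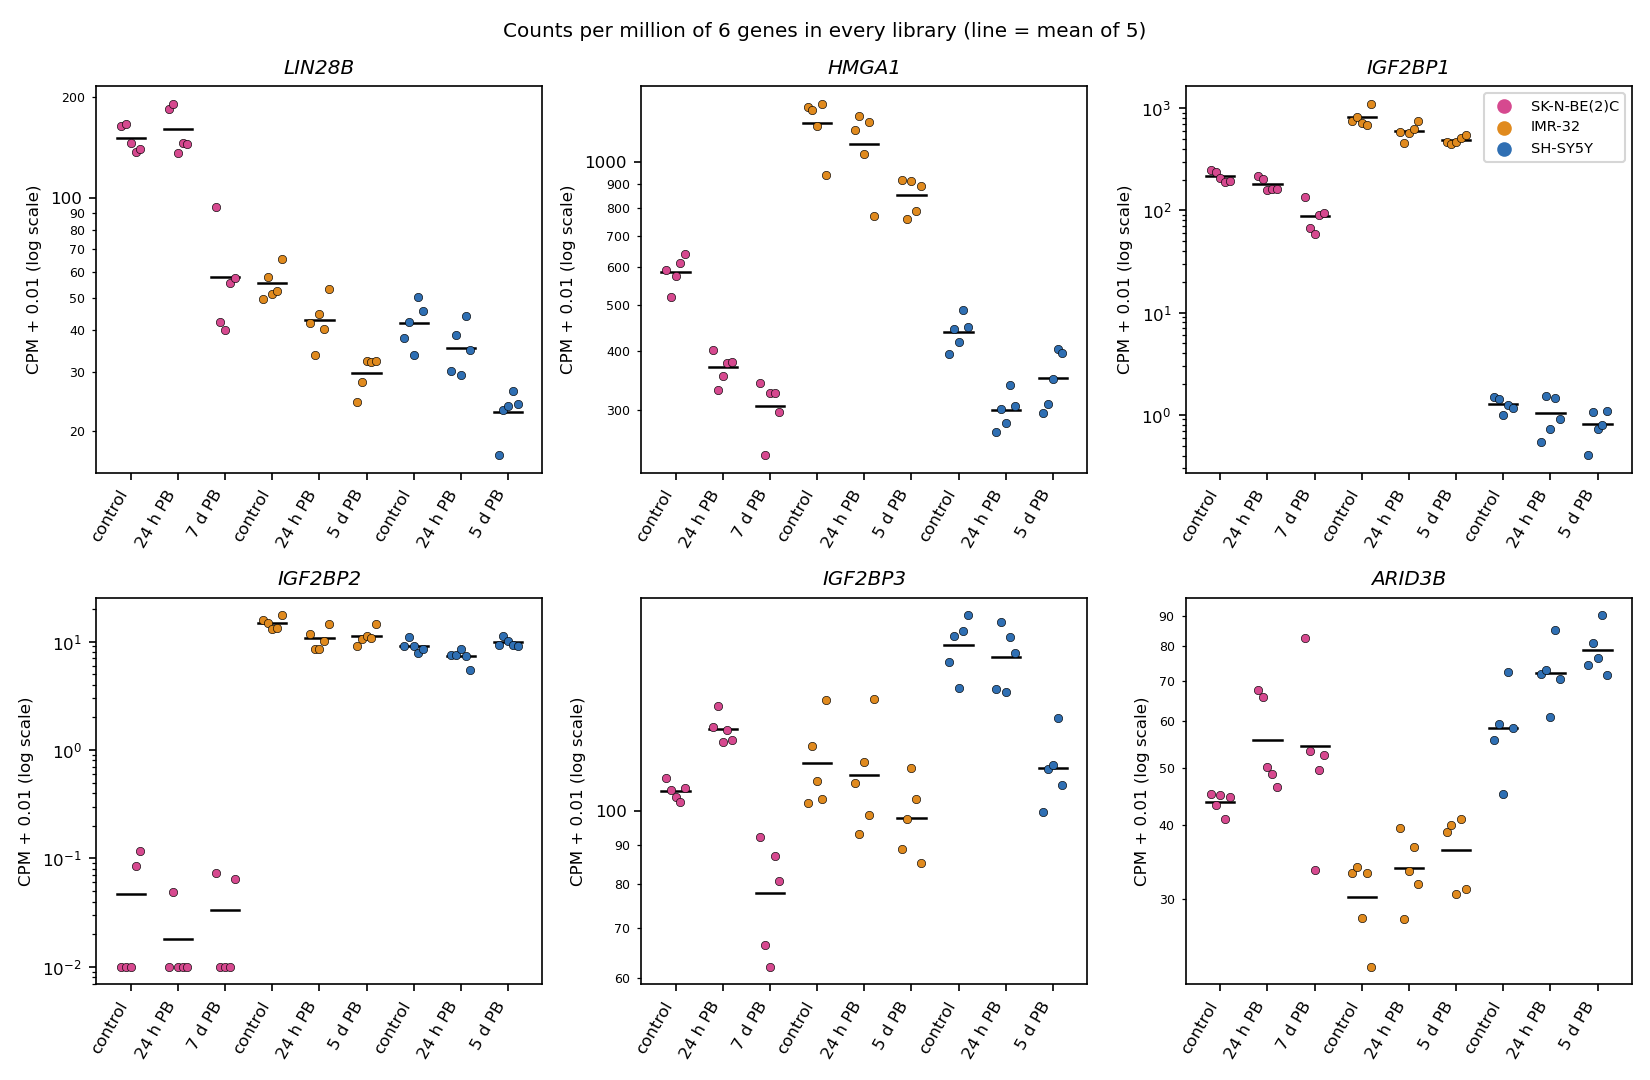
CPM plus 0.01, on log axes, of 6 genes in each of the 45 libraries, by line and treatment; bars are means of 5 libraries and the axis range differs between panels. LIN28B is lower in every longer PB library than in every control of its line, and IGF2BP2 is near 0 in SK-N-BE(2)C.

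**Figure D4:**
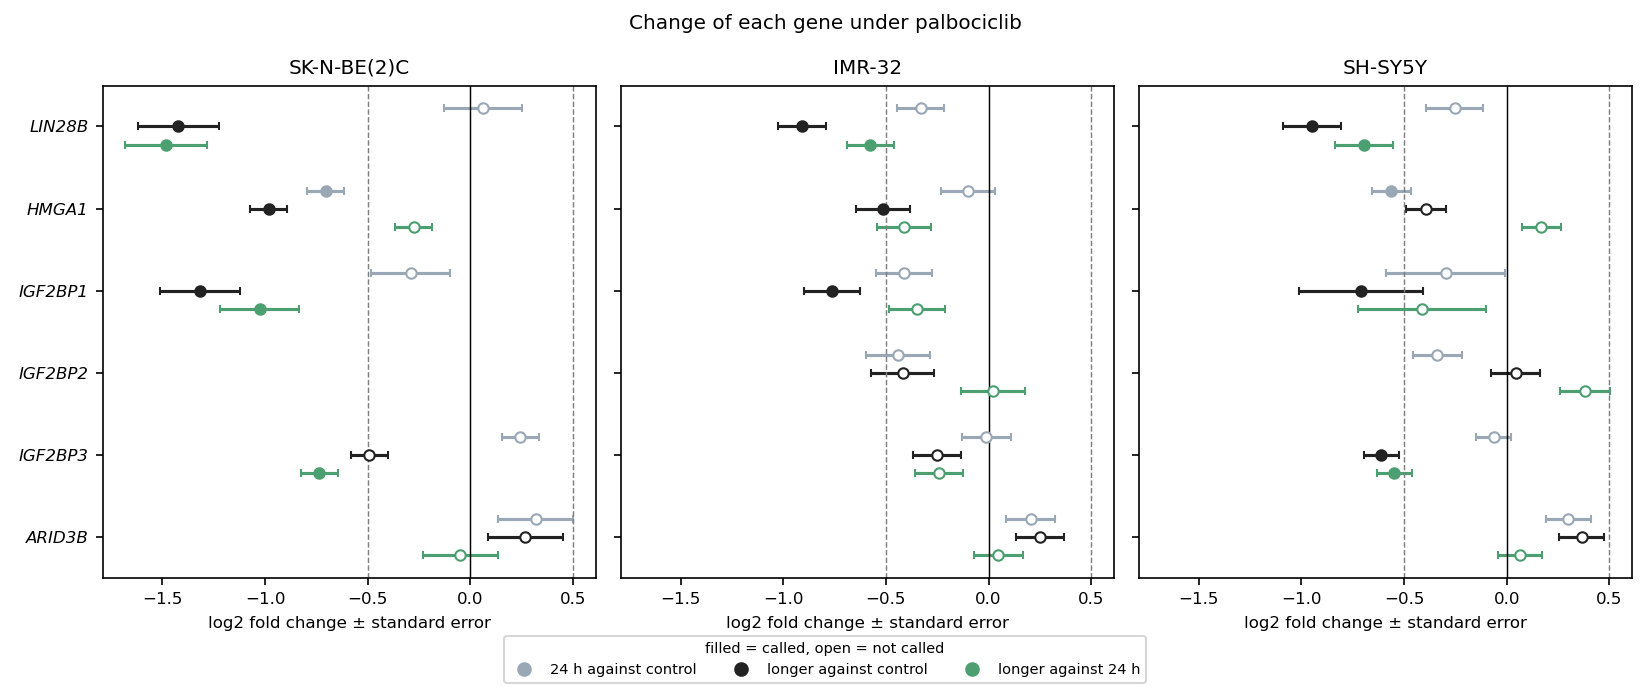
Log2 fold changes with SE bars of 6 genes in the 3 comparisons of each line; filled points are called, dashed lines mark the fold limit, and IGF2BP2 is not shown in SK-N-BE(2)C. LIN28B is called lower in every line by the longer time, while every ARID3B point is open.

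LIN28B, the inhibitor of let-7 maturation, was called lower in every line by the longer time and in none at 24 h. In the SK-N-BE(2)C controls it stood at 164, 166, 146, 136 and 139.8 CPM in replicates 1 to 5. After 24 h of PB it stood at 184, 191, 136, 146 and 145 CPM. By 7 d it stood at 93.5, 42.4, 40.2, 55.5 and 57.6 CPM. Every 7 d library lay below every control and every 24 h library, while the 24 h and control libraries overlapped. The change was 0.06 ± 0.19 (adjusted p = 0.82) at 24 h, -1.42 ± 0.20 (adjusted p = 1.2e-05) at 7 d (to 0.373 of the control level), and -1.48 ± 0.20 (adjusted p = 1.6e-05) between the treated times. Replicate 1 was the highest at 7 d, and without it the 7 d change was -1.68 (adjusted p = 2.6e-08).

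In IMR-32, LIN28B was at a lower level from the start. Its controls held 49.7, 58.0, 51.6, 52.6 and 65.5 CPM. At 24 h the libraries held 42.2, 33.8, 44.7, 40.4 and 53.3 CPM, overlapping with the controls. At 5 d they held 24.4, 28.0, 32.3, 32.1 and 32.4 CPM, all below every control and every 24 h library. The values were -0.33 ± 0.12 (adjusted p = 0.037) at 24 h, which is short of the fold limit, -0.91 ± 0.12 (adjusted p = 1.8e-05) at 5 d, and -0.58 ± 0.12 (adjusted p = 0.0015) between the treated times, the last no longer called without replicate 5 of the 24 h group (-0.49, adjusted p = 0.0032). SH-SY5Y, the line with least LIN28B, started from 37.9, 42.5, 33.8, 50.4 and 45.7 CPM. The 24 h libraries, at 30.1, 38.9, 29.4, 44.1 and 34.9 CPM, overlapped with the controls. The 5 d libraries, at 16.9, 23.0, 23.8, 26.4 and 24.2 CPM, lay below all of both other groups. Its values were -0.25 ± 0.14 (adjusted p = 0.14) at 24 h, at 5 d -0.95 ± 0.14 (adjusted p = 1.4e-05), which is 0.519 of the control level, and -0.69 ± 0.14 (adjusted p = 9.3e-04) between the treated times. An antisense gene, LIN28B-AS1, shares 181 exonic bases with LIN28B on the opposite strand, and at most 21 reads were counted for it in any library.

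LIN28A, the paralog of LIN28B, was at the floor. A single read was counted for it in 1 of the 45 libraries, out of 861657175 counts, and a count of 0 allows up to 0.118 to 0.223 CPM in a library (3 counts, counting error only). No change of LIN28A could be measured at this depth.

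HMGA1 was the gene called lower at 24 h, in SK-N-BE(2)C and SH-SY5Y but not IMR-32. In SK-N-BE(2)C the controls held 591, 519, 575, 613 and 642 CPM. The 24 h libraries held 401, 331, 354, 377 and 379 CPM and the 7 d libraries 342, 240.1, 326, 325 and 297 CPM, and both groups lay wholly below the controls. The changes were -0.71 ± 0.09 (adjusted p = 8.1e-06) at 24 h and -0.98 ± 0.09 (adjusted p = 6.2e-08) at 7 d (to 0.506 of control), with -0.28 ± 0.09 (adjusted p = 0.014) between the treated times, short of the fold limit. In SH-SY5Y the controls held 393, 445, 416, 488 and 448 CPM. The 24 h libraries, at 269, 301, 281, 338 and 306 CPM, were all below them, with a change of -0.56 ± 0.10 (adjusted p = 9.2e-05). The 5 d libraries held 295, 309, 348, 402 and 394 CPM and overlapped with the controls. There the value was -0.39 ± 0.10 (adjusted p = 0.0014), under the fold limit, and it was 0.17 ± 0.10 (adjusted p = 0.16) from 24 h to 5 d. HMGA1 thus had its lowest mean in SH-SY5Y at 24 h and in SK-N-BE(2)C at 7 d.

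In IMR-32 the HMGA1 controls held 1309, 1289, 1193, 1332 and 939 CPM. At 24 h the libraries held 1173, 1256, 1043, 1218 and 772 CPM, and replicate 5 was the lowest of both groups. The 5 d libraries held 918, 757, 915, 789.5 and 894 CPM, all below every control, the nearest pair being 918 at 5 d and 939 in control replicate 5. The change was -0.10 ± 0.13 (adjusted p = 0.59) at 24 h and -0.51 ± 0.13 (adjusted p = 0.0041) at 5 d, with -0.41 ± 0.13 (adjusted p = 0.023) between the treated times, inside the fold limit. The 5 d call sits at the fold limit: with the replicate number as a block it was -0.496 (adjusted p = 0.0024), which is not called. It also fell short of the fold limit without any 1 of 5 libraries, which were replicates 1, 2 and 4 of the controls and 2 and 4 of the 5 d group (-0.47 at the least). Without replicate 5 of all 3 groups it was -0.61 (adjusted p = 3.6e-05). Without those libraries the change from 24 h to 5 d was also called (-0.54, adjusted p = 2.1e-04). Reads of HMGA1 could be shared with its processed pseudogenes, but the 6 pseudogenes in the table summed to at most 199 counts in a library, and HMGA1 had at least 4448 in each.

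IGF2BP1, which binds and stabilises messenger RNAs such as that of MYC, was called lower at the longer time in each line, on very few reads in SH-SY5Y. In SK-N-BE(2)C the controls held 249, 239, 206, 190.1 and 192 CPM. The 24 h libraries held 217, 201, 159.6, 162 and 160.5 CPM, and the groups overlapped. The 7 d libraries held 136, 66.4, 58.9, 89.5 and 93.5 CPM, below every library of both other groups. The changes were -0.29 ± 0.19 (adjusted p = 0.23) at 24 h, -1.32 ± 0.19 (adjusted p = 2.2e-05) at 7 d and -1.03 ± 0.19 (adjusted p = 3.5e-04) between the treated times. As for LIN28B, replicate 1 was the highest at 7 d, and without it the 7 d change was -1.55 (adjusted p = 3.5e-07).

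IMR-32 had the most IGF2BP1, with 751, 815, 707, 688 and 1106 CPM in the controls, where replicate 5 was the highest. The 24 h libraries, at 582, 453, 575, 619 and 746 CPM, overlapped with the controls. The 5 d libraries, at 461, 442, 468, 510.1 and 542 CPM, were all below them. The values were -0.41 ± 0.14 (adjusted p = 0.029) at 24 h, under the fold limit, -0.76 ± 0.14 (adjusted p = 3.2e-04) at 5 d and -0.35 ± 0.14 (adjusted p = 0.058) between the treated times. With 1 library left out, the 24 h value ran from -0.50 to -0.27. In SH-SY5Y the gene had 7 to 35 reads a library. Its 5 controls pooled to 1.27 CPM (95% Poisson interval 1.06 to 1.51, counting error only), the 24 h libraries to 1.04 (0.846 to 1.28) and the 5 d libraries to 0.803 (0.629 to 1.01). The 5 d change there was -0.71 ± 0.30 (adjusted p = 0.046), with overlapping groups, and this call is lost in DESeq2 (adjusted p = 0.053), without the filter on low counts (0.066), with library totals alone (0.066), in the fit of all 45 libraries (0.071), and without any 1 of 8 libraries. It is the least secure call of the set.

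IGF2BP2, the paralog of IGF2BP1 that is common in adult tissues, was called in no comparison of treated with control libraries or between treated times. In IMR-32 the controls held 15.8, 14.8, 13.0, 13.4 and 17.5 CPM. After 24 h there were 11.6, 8.51, 8.58, 10.1 and 14.5 CPM and after 5 d 9.07, 10.6, 11.2, 10.8 and 14.4 CPM, both overlapping with the controls. The values were -0.44 ± 0.16 (adjusted p = 0.039) and -0.42 ± 0.16 (adjusted p = 0.034), both under the fold limit. Replicate 5 was the highest library of each treated group, and each value was past the limit without it, at -0.57 (adjusted p = 0.0062) for 24 h and -0.53 (adjusted p = 0.0092) for 5 d. In SH-SY5Y the controls held 8.99, 11.1, 9.12, 7.82 and 8.57 CPM. There were 7.54, 7.45, 8.60, 7.29 and 5.50 CPM at 24 h and 9.29, 11.3, 10.2, 9.29 and 9.12 CPM at 5 d, and every 5 d library lay above every 24 h library. The values were -0.34 ± 0.12 (adjusted p = 0.026) at 24 h, 0.04 ± 0.12 (adjusted p = 0.76) at 5 d and 0.38 ± 0.12 (adjusted p = 0.016) between the treated times. In SK-N-BE(2)C there were 3 reads over the controls, 1 at 24 h and 2 at 7 d, and no fold change is given.

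IGF2BP3, the third of these paralogs, was called lower at 5 d in SH-SY5Y, and between the treated times in that line and SK-N-BE(2)C. In SK-N-BE(2)C the controls held 110.4, 107, 104, 103 and 107 CPM. All 24 h libraries were above them, at 129, 137, 123, 128 and 124 CPM, with a change of 0.24 ± 0.09 (adjusted p = 0.037), which is short of the fold limit. All 7 d libraries were below both groups, at 92.4, 66.5, 62.2, 87.0 and 80.7 CPM. Their change was -0.74 ± 0.09 (adjusted p = 4.7e-06) against 24 h, which was called, and -0.49 ± 0.09 (adjusted p = 1.4e-04) against control, just inside the fold limit. It was past the limit in 6 of the 15 fits that each left out 1 library, and it was -0.58 (adjusted p = 7.0e-06) without replicate 1 of the 7 d group. SH-SY5Y, with the most IGF2BP3, had 158, 170.5, 146, 173 and 182 CPM in the controls. Its 24 h libraries held 145, 178, 144, 170.1 and 162 CPM, overlapping with them. The 5 d libraries were below all of both groups, at 99.6, 113, 115, 133 and 108 CPM. The changes were -0.06 ± 0.08 (adjusted p = 0.56) at 24 h, -0.61 ± 0.08 (adjusted p = 4.9e-06) at 5 d and -0.55 ± 0.08 (adjusted p = 8.3e-05) between the treated times, of which the last is lost without replicate 1 of the 5 d group (-0.47) or replicate 2 of the 24 h group (-0.49).

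In IMR-32, IGF2BP3 was called in no comparison. The controls held 102, 122, 109.6, 104 and 140.1 CPM, the 24 h libraries 109, 93.2, 116, 98.7 and 141 CPM and the 5 d libraries 89.1, 97.7, 114, 104 and 85.3 CPM, and all 3 groups overlapped. The values were -0.01 ± 0.12 (adjusted p = 0.96) at 24 h and -0.25 ± 0.12 (adjusted p = 0.086) at 5 d. IGF2BP3 shares 1521 exonic bases with MALSU1, a mitochondrial ribosome assembly factor on the opposite strand. The sources used here do not name the counted strand, so reads of this overlap cannot be assigned. MALSU1 had 339 to 628 reads in the SK-N-BE(2)C controls, where IGF2BP3 stood at 106 ± 2.94 CPM, and 519 to 791 in those of SH-SY5Y. Its own change at 7 d in SK-N-BE(2)C was -0.78 ± 0.08 (adjusted p = 3.3e-07). It changed by -0.54 ± 0.14 (adjusted p = 0.0043) at 5 d in IMR-32, while its value was -0.19 ± 0.09 (adjusted p = 0.069) at 5 d in SH-SY5Y, where IGF2BP3 fell. The part of MALSU1 reads in the IGF2BP3 counts was not tested.

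ARID3B had fold changes above 0 against control in all 3 lines, but none was called. In SH-SY5Y it went from 55.8, 59.3, 45.2, 72.5 and 58.4 CPM in the controls to 71.8, 73.0, 60.9, 85.2 and 70.4 CPM at 24 h and 74.5, 81.2, 76.4, 90.3 and 71.6 CPM at 5 d, with overlap between neighbouring groups and between control and 5 d. The values were 0.30 ± 0.11 (adjusted p = 0.030) at 24 h and 0.37 ± 0.11 (adjusted p = 0.0070) at 5 d, both inside the fold limit. In SK-N-BE(2)C the controls lay close together, at 45.2, 43.3, 44.9, 40.9 and 44.7 CPM. All 24 h libraries were above them, at 67.6, 65.8, 50.1, 48.8 and 46.3 CPM, with replicates 1 and 2 the highest. The 7 d libraries spread widely, at 82.7, 53.4, 33.6, 49.5 and 52.4 CPM, with replicate 1 the highest. The values were 0.32 ± 0.18 (adjusted p = 0.17) at 24 h and 0.27 ± 0.18 (adjusted p = 0.20) at 7 d, and the latter was 0.04 without replicate 1 of the 7 d group. In IMR-32 the controls held 33.3, 34.0, 27.9, 33.3 and 23.1 CPM and the 5 d libraries 38.9, 40.002, 30.7, 41.0 and 31.3 CPM. The values were 0.20 ± 0.12 (adjusted p = 0.20) at 24 h and 0.25 ± 0.12 (adjusted p = 0.088) at 5 d.

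Whether the responses differ between lines was tested as a difference of fold changes on all 45 libraries. IGF2BP2 was not compared with SK-N-BE(2)C, where it had too few reads. Of 32 such tests 2 were called, both of HMGA1. In the other 4 comparisons no gene was called, of 6 in SH-SY5Y against IMR-32 and of 5 against SK-N-BE(2)C, where the shares of all genes were at 24 h 3.07% for SH-SY5Y against IMR-32 and 2.04% for SH-SY5Y against SK-N-BE(2)C, and at the longer time 20.8% for SH-SY5Y against IMR-32 and 23.9% for IMR-32 against SK-N-BE(2)C. The response of HMGA1 at 24 h was 0.60 ± 0.16 (adjusted p = 0.014) higher in IMR-32 than in SK-N-BE(2)C, its fold change lying nearer to no change (background: 4.49% of genes called). After the longer treatment its response was 0.62 ± 0.16 (adjusted p = 0.0026) higher in SH-SY5Y than in SK-N-BE(2)C (background 21.2%). For LIN28B the longer response differed by 0.49 ± 0.23 (adjusted p = 0.095) between IMR-32 and SK-N-BE(2)C and by 0.50 ± 0.23 (adjusted p = 0.089) between SH-SY5Y and SK-N-BE(2)C, neither of which passed. In SK-N-BE(2)C the replicate numbers pair control with 24 h libraries by the rule used here, but not the 7 d libraries with either. With the replicate number as a block both differences were called, at 0.53 (adjusted p = 0.011) and 0.55 (adjusted p = 0.0096). Without replicate 1 of the SK-N-BE(2)C 7 d group both passed, at 0.74 (adjusted p = 0.0022) and 0.76 (adjusted p = 0.0021). The longer responses of LIN28B in IMR-32 and SH-SY5Y differed by 0.02 ± 0.23 (adjusted p = 1.0). For IGF2BP2 the difference between these lines at 5 d was 0.52 ± 0.23 (adjusted p = 0.088), and with the replicate number as a block, which pairs libraries in both lines, it was called (0.52, adjusted p = 0.019).

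Genes that make, carry or answer to let-7 were counted from lists. The 10 proliferation markers, which an inhibitor of CDK4 and CDK6 is known to lower, were all called lower at 24 h in each line (median log2 fold changes -2.94, -2.89 and -3.41, backgrounds 10.6%, 10.5% and 11%), and 10, 9 and 10 were lower at the longer time (-2.58, -1.40 and -2.21, backgrounds 22.3%, 15.5% and 17.3%). Those with the widest mean fall among the markers called in every line were MKI67, a marker of dividing cells (-3.38, -1.37 and -3.34), RRM2, a subunit of ribonucleotide reductase (-3.20, -1.43 and -3.21), and CCNA2, a cyclin of S phase and mitosis (-3.34, -1.61 and -2.87). From 24 h to 5 d all 10 rose in IMR-32 (background 10.8% higher) and 8 rose in SH-SY5Y (10.5%), while 0 of 10 were called from 24 h to 7 d in SK-N-BE(2)C (median 0.36, backgrounds 17.5% higher and 14.4% lower). LIN28B fell over this interval in all 3 lines. Their summed level was 3522 to 3712 CPM in the SK-N-BE(2)C controls, 431 to 681 at 24 h and 397 to 1092 at 7 d, and the part of proliferation in the changes of the genes studied here was not tested. MIRLET7BHG, a host transcript of let-7 hairpins, was called higher by the longer time in IMR-32 (0.90 ± 0.19, adjusted p = 0.0011), also in SK-N-BE(2)C (0.76 ± 0.17, adjusted p = 8.0e-04), but not in SH-SY5Y (-0.24 ± 0.15, adjusted p = 0.17). MIR100HG, another host, was called higher at 5 d in IMR-32 (1.21) and SH-SY5Y (1.21), at 1.39 ± 0.432 and 1.51 ± 0.499 CPM. These 2 were named after their values were seen. At the longer time 1, 2 and 1 of the 5 host transcripts tested were called higher in the 3 lines (backgrounds 24.5%, 16.6% and 18.6%) and 0 lower (22.3%, 15.5% and 17.3%), in the order of their introduction. Host RNA is not mature let-7, whose level is unknown here.

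Of 17 genes of microRNA processing and let-7 turnover, 0 rose and 5, 1 and 5 fell at the longer time in the 3 lines, in the order in which they were introduced (backgrounds 24.5%, 16.6% and 18.6% higher, and 22.3%, 15.5% and 17.3% lower). SYNCRIP, an RNA-binding protein that is also a known partner of IGF2BP1, fell in all 3 lines (-0.90, -0.61 and -0.84). DICER1, which cuts the let-7 precursors, was called lower in SH-SY5Y (-0.59 ± 0.11, adjusted p = 2.5e-04), was just inside the fold limit at 7 d (-0.49 ± 0.10, adjusted p = 5.1e-04 in SK-N-BE(2)C), and was not called in IMR-32. The others called lower, named after their values were seen, were KHSRP (-0.76 and -0.78) and MSI1 (-1.30 and -0.62) in both SH-SY5Y and SK-N-BE(2)C (the latter first), DROSHA (-0.62) and PRKRA (-0.59) in SK-N-BE(2)C, and AGO2 (-0.53) in SH-SY5Y. Among 10 partners of the IGF2BP proteins in messenger ribonucleoprotein, 0 rose (backgrounds 24.5%, 16.6% and 18.6%) and 5, 1 and 5 fell (22.3%, 15.5% and 17.3%), SYNCRIP again among them. HNRNPU (-0.78 and -0.81), DHX9 (-0.91 and -0.88) and YBX1 (-0.54 and -0.76), known components of the IGF2BP1 complex, fell in the same pair of lines, and were also chosen after their values were seen.

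Of 13 let-7 targets of the cell cycle tested, 8 fell and 1 rose at the longer time in each line, with medians of -1.12, -0.70 and -0.92. The shares of all genes were 22.3%, 15.5% and 17.3% lower and 24.5%, 16.6% and 18.6% higher. By the search above, 9 of the 14 genes listed held a let-7 seed match, as did 17 of 23 in the list of growth and development. AURKB, a mitotic kinase (-3.47, -1.93 and -3.19), E2F2, a transcription factor of S-phase entry (-3.26, -1.42 and -2.19), and PBK, a mitotic kinase (-2.51, -1.42 and -2.39), had the widest falls called in all 3 lines, and these genes had already fallen at 24 h. The part of proliferation in these falls was not tested. The riser, named for being the only one, was CCND1, the cyclin partner of CDK4 and CDK6 (1.24, 1.36 and 0.77). Let-7 targets of growth and development gave 3 higher and 7 lower of 21 in SK-N-BE(2)C, 2 and 1 of 22 in IMR-32, and 1 and 6 of 22 in SH-SY5Y, where the shares of all genes were 24.5% higher and 22.3% lower, 16.6% and 15.5%, and 18.6% and 17.3%. Within that list MYCN was called lower at 7 d in SK-N-BE(2)C (-0.71 ± 0.10, adjusted p = 5.7e-06), with a value short of the fold limit at 24 h (0.31 ± 0.10, adjusted p = 0.015). In IMR-32 it was higher at 24 h (0.58 ± 0.09, adjusted p = 1.1e-04) and not called at 5 d (0.32 ± 0.09, adjusted p = 0.0056), and in SH-SY5Y it was not called against control (-0.58 ± 0.26, adjusted p = 0.069 at 24 h and 0.27 ± 0.25, adjusted p = 0.35 at 5 d). Of 6 genes of the IGF axis tested, 3 were called higher and 1 lower at 7 d in SK-N-BE(2)C, in SH-SY5Y 0 and 1 at 5 d, and in IMR-32 0 and 2, with medians of 0.37, 0.27 and 0.18. The shares of all genes were those given for the list of growth and development. The 3 higher were the receptors INSR (0.69), IGF1R (0.72) and IGF2R (0.84), named after their values were seen. IRS1, the adaptor of the insulin and IGF1 receptors, was lower in all 3 lines (-0.78, -0.86 and -1.61). IGF2, whose messenger RNA gave the IGF2BP proteins their name, was called lower at 5 d in IMR-32 (-2.13 ± 0.52, adjusted p = 0.0031) on few reads, and was not called against control in the other lines. It had 13 to 57 reads in the IMR-32 controls (1.71 ± 0.772 CPM) and 3 to 14 at 5 d (0.392 ± 0.248 CPM), against 203 ± 67.7 CPM in the SK-N-BE(2)C controls and 154 ± 108 CPM in those of SH-SY5Y.

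**Figure D5:**
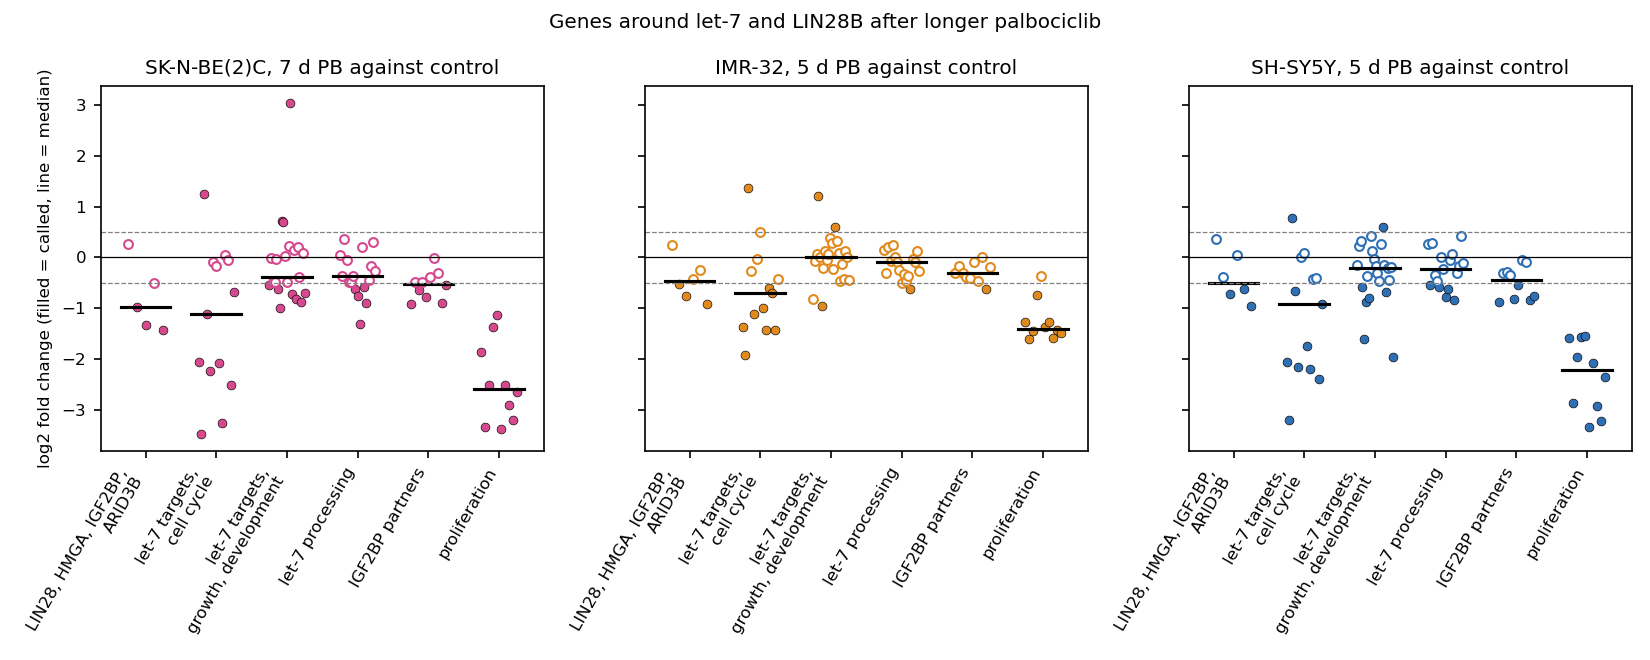
Log2 fold changes at the longer time against control for 6 lists in each line: the genes studied, let-7 targets of the cell cycle and of growth and development, let-7 processing, IGF2BP partners and proliferation markers; filled points are called, bars are medians and dashed lines mark the fold limit. Of the lists plotted, proliferation markers have the lowest median in each line, and the cell-cycle targets of let-7 include 8 called lower and 1 called higher in each.

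Of the adrenergic list, 2 of 10, 2 of 9 and 3 of 10 were called higher by the longer time (backgrounds 24.5%, 16.6% and 18.6%). In each line 1 was called lower (backgrounds 22.3%, 15.5% and 17.3%). CHGA, an adrenergic granule protein gene, was the only one of them called the same way in every line (1.02, 1.23 and 1.66). Of the mesenchymal list 5 of 7, 4 of 5 and 6 of 8 fell (backgrounds 22.3%, 15.5% and 17.3% lower) and 1, 0 and 1 rose (24.5%, 16.6% and 18.6% higher). Those lower included VIM (-0.93, -1.32 and -0.53) and TWIST1 (-0.94, -0.57 and -1.13) in each line. Summed mesenchymal markers spanned 576 to 1081 CPM in the IMR-32 controls and 265 to 439.7 CPM at 5 d. Their part in the fall of LIN28B was not tested. Of the Schwann cell list, ERBB3 and S100B are given here as examples, which do not stand for the whole list, and neither passed the filter on low counts in IMR-32. At the longer time ERBB3 was called lower in SK-N-BE(2)C (-0.79) and higher in SH-SY5Y (2.15). S100B was called higher in SH-SY5Y at 5 d (0.62) and at 24 h (0.77), and in SK-N-BE(2)C at 24 h (1.316) but not at 7 d (0.23, adjusted p = 0.53). The part of Schwann cell markers in the changes of the genes studied was not tested.

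The genes whose levels followed these most closely were found by Pearson's r over the 45 libraries, on log2 CPM with each line's mean taken out, among 11620 genes of at least 1 CPM in every line. The libraries share their treatment, so r describes a common course and carries no test. For LIN28B they were PNPT1 (0.95), LYPLA1 (0.94) and GEMIN5 (0.94). LIN28B itself was the closest gene to IGF2BP1 (0.89) and the second closest to IGF2BP3 (0.89, after TOP2B at 0.90). HMGA1 was nearest to DHPS (0.87), SLC25A5 (0.86) and NUDT5 (0.86), and its r with LIN28B was 0.57. ARID3B was nearest to LPIN1 (0.80), SYT7 (0.78) and EAF1 (0.78), and its r with LIN28B was -0.09, that with HMGA1 -0.31.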

How the data were processed

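PolyA RNA of 45 libraries (9 groups of 5) was prepared with a directional kit and sequenced as paired ends by the authors. Reads were trimmed with Trim Galore 0.6.4 and mapped to hg19 with STAR (2.6.1d per the labels, while the study's methods list another release), whose quantMode gave the deposited counts of reads per gene. The deposited CPM tables, and tables with the authors' own fold changes and p-values from DESeq2 1.32.0, were not used.

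The counts were tested with edgeR 4.0.16 in R 4.3.3 (TMM scaling, filterByExpr with a minimum count of 10, a minimum total of 15 and a minimum share of 0.7, robust quasi-likelihood F test, Benjamini-Hochberg adjustment over all genes tested). Each line was fitted on its 15 libraries (14055, 14293 and 14547 genes), and differences between lines on all 45. Calls needed an adjusted p under 0.05 together with a log2 fold change past 0.5 in size. The SE of a log2 fold change came from its size and the square root of its F. The script was tested on simulated data. CPM used library totals (13459219 to 25441812) without TMM, and intervals cover counting error only. Seed matches were searched with Python 3.11.15.

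The members and gene lists were chosen with earlier results of these data known. All members are named, and of each list up to 3 genes with the greatest mean absolute change among those called the same way in every line, besides MYCN, DICER1, overlapping genes and the 3 genes nearest to each member. Other genes of the lists (CCND1, IGF2, TFAP2B, TH, ERBB3, S100B, CDH19 and those marked so in the text) were named after their values were seen. Samples were grouped by their labels. Replicate numbers were taken to pair libraries where every pair of same-numbered libraries had deviations correlated over 0.1, which held in IMR-32 (lowest r 0.143, 0.115 and 0.114) and SH-SY5Y (0.221, 0.106 and 0.119) and not in SK-N-BE(2)C (0.211, 0.0858 and 0.0597). Alternatives were other scalings, no filter, DESeq2 1.42.0, no fold limit, a replicate block, a joint fit, and each library left out. Fits without replicate 5 of all IMR-32 groups, without replicate 1 of all SK-N-BE(2)C groups, and with replicates 3 to 5 of SK-N-BE(2)C alone were added after the data were seen. Some marker genes are not reported here.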

Additional observations from a re-analysis of the deposited data

Results flagged for a closer look

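The response of HMGA1 to PB differed between lines in 2 of 32 tests of such differences, which leave out IGF2BP2 against SK-N-BE(2)C. At 24 h the log2 fold change was 0.60 ± 0.16 higher in IMR-32 than in SK-N-BE(2)C (adjusted p = 0.014), where HMGA1 was at -0.10 and -0.71. This difference was 0.51 (adjusted p = 0.051) without the filter on low counts, and is then not called. At the longer time the log2 fold change was 0.62 ± 0.16 higher in SH-SY5Y than in SK-N-BE(2)C (adjusted p = 0.0026), where HMGA1 was at -0.39 and -0.98, and the treatment lasted 5 d in the first line and 7 d in the second. The gap between the outermost value and its neighbour, as a share of the range, passed 0.71 in none of the 51 sets of 5 values tested. This looks at 1 gene at a time and cannot show whether a whole library stands apart. Replicate 5 of each IMR-32 group did correlate less with its group, as given above.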

How the results depend on the processing

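No called fold change of the genes studied changed sign under any alternative that was run, while values that were not called did in places, among them LIN28B at 24 h in SK-N-BE(2)C (0.06, lowest -0.03), ARID3B at 7 d in SK-N-BE(2)C (0.27, lowest -0.01) and HMGA1 at 24 h in IMR-32 (-0.10, highest 0.00). LIN28B stayed called lower at the longer time in every line. Over all alternatives, and leaving out IGF2BP2 against SK-N-BE(2)C, 2791 fold changes kept their side of the limits, 46 gained a call and 30 lost one. Without the fold limit the genes called in SH-SY5Y were 7154, 9516 and 6331 at 24 h, at 5 d and between them (3129, 5225 and 2434 with it), in IMR-32 4738, 7296 and 4914 (2620, 4576 and 2803), with SK-N-BE(2)C at 6577, 9993 and 8335 (3022, 6572 and 4488). Of the genes studied it gave 2 in SK-N-BE(2)C at 24 h, 3 in IMR-32 at 24 h and 2 between its treated times, and 3 and 5 in SH-SY5Y at 24 h and 5 d. Without replicate 5 in all IMR-32 groups, chosen after seeing the data, 2 were called between the treated times, and 1 response at the longer time differed from SK-N-BE(2)C and 1 from SH-SY5Y. Library totals alone gave 1 in SH-SY5Y between the treated times, no filter gave 0 for the 24 h response of IMR-32 against SK-N-BE(2)C, and DESeq2 gave 1 for SH-SY5Y against IMR-32 at the longer time. The cause was not tested.

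With the replicate block, responses at the longer time differed for 1 gene in SH-SY5Y against IMR-32 (IGF2BP2), and against SK-N-BE(2)C for 2 in IMR-32 (LIN28B and IGF2BP1) and 2 in SH-SY5Y (HMGA1 and LIN28B). The block gave 3232, 5314 and 2534 genes called in SH-SY5Y, 3122, 5005 and 3307 in IMR-32, with SK-N-BE(2)C at 3186, 6703 and 4652. In the paired lines it changed no call of the genes studied against control or between treated times but that of HMGA1 at 5 d in IMR-32. In SK-N-BE(2)C, where the 7 d libraries missed the limit for pairing by number, it added IGF2BP3 at 7 d (-0.50).

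Leaving out each library in turn gave 0 to 2 of the genes studied in IMR-32 at 24 h, where IGF2BP1 (-0.50) and IGF2BP2 (-0.57) were called without replicate 5 of the 24 h group, 2 to 4 at 5 d, 3 to 4 in SK-N-BE(2)C at 7 d, 2 to 3 in SH-SY5Y at 5 d and 1 to 2 between its treated times. Differing responses ranged from 0 to 1 in SH-SY5Y against IMR-32 at both times, and against SK-N-BE(2)C at the longer time from 1 to 3 in SH-SY5Y and 0 to 2 in IMR-32, both highest without replicate 1 of the 7 d group. Depth limits LIN28A, IGF2BP2 in SK-N-BE(2)C and IGF2BP1 in SH-SY5Y.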
